A study of Mus musculus with 4 samples.

Results

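Monocytes low in Ly6c2 and also low in genes of patrolling monocytes were examined in a single-cell RNA sequencing study of mouse lung. A cell was selected when the 7 monocyte genes Csf1r, Ms4a6c, Clec4a1, Clec4a3, Aif1, Plbd1 and Ifitm6 together made up at least 0.2% of its unique molecular identifiers (UMIs, the counted RNA molecules), and when the Ly6c2, F13a1 and Vcan sum and the Treml4, Ace, Cd300e, S1pr5 and Eno3 sum were each below 5 UMIs. Cells rich in complement C1q genes, surfactant genes, B or T cell receptor genes, Cd209a and Flt3, or Marco and Krt79 were left out. The rule selected 789 of 25982 cells. It used measured counts, so the levels of these genes in the selected cells are a description.

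The study compared 4 libraries of lung cells from mice 11 weeks old. NW came from wild-type mice in normoxia and NK from mice with a knockout of Fundc1, which codes for a receptor of the outer mitochondrial membrane that acts in mitophagy, also in normoxia. HSW came from wild-type and HSK from Fundc1 knockout mice given HySu, a model of pulmonary hypertension in which hypoxia is combined with SU5416, a blocker of the vascular endothelial growth factor receptor, dosed weekly 3 times; NW and NK mice received vehicle. Each library pooled the cells of 5 mice, so no comparison has a replicate and no test between conditions was possible. The cells that lost Fundc1 are not named in the sample labels; the series title speaks of an endothelial deficiency.

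Monocytes leave the bone marrow as Ly6c2-high, or classical, cells that enter tissue with the help of the chemokine receptor CCR2. Some convert in the blood, under the nuclear receptor NR4A1, to Ly6c2-low, or non-classical, cells that patrol the vessel wall. Cells caught between these states, and monocytes that take up MHC class II expression in tissue, have been described as intermediate in the mouse.

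The libraries held 7649 cells in NW, 9164 in NK, and 5041 in HSW and 4128 in HSK, and 41308071 to 63501686 UMIs. The selected cells had a median of 4965 UMIs in NW, 3973 in NK, and 5583 in HSW and 6024 in HSK. Each pair of libraries shared 20 to 70 cell barcodes, none of them among the selected cells. The deposited libraries differed in their lowest UMI count per cell, which was 3775, 3182, 4230 and 4726 in the same order. All 95% intervals given are exact and cover counting error only. Molecules of 1 gene clumped in cells of cluster 1, described next: a cell that held a gene had 1.61 to 1.70 of its UMIs on average against 1.23 to 1.24 under independent counting, so these intervals are too narrow.

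The selected cells were monocyte-like only in part. Clustering them gave 7 groups, and cluster 1, with 468 cells or 59.3% of them, was monocyte-like: its leading genes included Msr1, Gngt2, Gm9733, Pla2g7, Apoe, Klra2, Sirpb1c, Lyz2 and Plac8. In cluster 1, 92.7% of cells held at least 3 of the 5 label markers Csf1r, Pla2g7, Aif1, Plac8 and Clec4a1, against 37.4% of the 321 other selected cells and 13.2% of all lung cells outside the monocyte groups. Csf1r, Aif1 and Clec4a1 are also genes of the selection score, so the rule itself favored cells that hold them. Among Ly6c2-high and non-classical monocytes, defined below, 80.1% and 94.3% held at least 3. The markers thus do not set cluster 1 apart from other monocytes. Csf1r, the receptor of the monocyte growth factor, had a UMI in 85.7% of cluster 1 cells and in 39.9% of the other selected cells; 33.6% of the remaining lung cells held one too, at a median depth over all cells of 5355 to 7845.5 UMIs per library. Plac8 had a UMI in 97.6% of cluster 1 cells, Pla2g7 in 82.9%, Clec4a1 in 67.5% and Aif1 in 62.0%.

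The other clusters were led by genes of other cells. Cluster 2, 130 cells, was dendritic cell type 1-like, led by Sept3, Xcr1, Itgae, Cst3, Wdfy4 and Clec9a. Xcr1, a chemokine receptor of those dendritic cells, stood at 309 CPM there (counts per 1000000 UMIs, summed over the cells) and at 2.26 CPM in cluster 1, while Pla2g7 stood at 16.2 and 631 CPM. Cluster 3, 65 cells, led by Retnla, Mgl2, Mmp12 and Cd7, was left unnamed. Clusters 4 and 5, 59 and 25 cells, were led by neutrophil genes, G0s2, Retnlg, Cxcr2 and Csf3r in the former and the granule genes Camp, Ngp, Ltf and Lcn2 in the latter. Cluster 6, 23 cells, was mixed. It was led by Gzma, Ccl5 and Nkg7, genes of cytotoxic lymphocytes, and also by the endothelial genes Cldn5, Adgrf5 and Aqp1. T and NK markers were held by 52.2% of its cells and endothelial markers also by 52.2%. Cluster 7, 19 cells, was led by the stromal genes Mgp, Dcn and Inmt. Plbd1 supplied 44.7% of the monocyte score outside cluster 1 and 22% inside it.

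**Figure D1:**
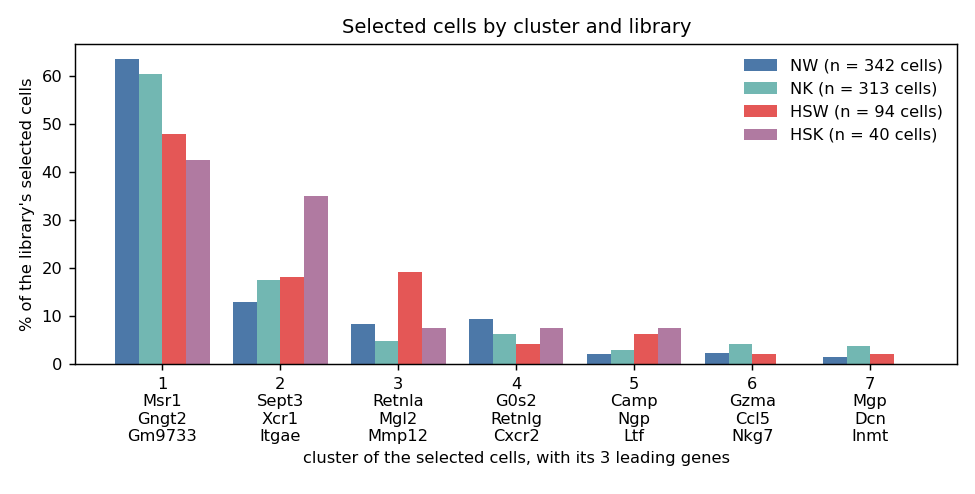
Share of each library's selected cells (y axis, percent) in each of the 7 clusters (x axis, with 3 leading genes), by library. Cluster 1 held 63.5% of the selected cells in NW, 60.4% in NK, and 47.9% in HSW and 42.5% in HSK, and cluster 2 held 35% in HSK.

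The mix differed between libraries. Cluster 2 made up 12.9% of the selected cells in NW, 17.6% in NK, and 18.1% in HSW and 35% in HSK, and cluster 3 made up 8.48%, 4.79%, 19.1% and 7.5%. Because the same genes that differ between libraries also formed the clusters, these sizes are a description. Gene levels are therefore compared within cluster 1, by number, and over all selected cells only as counts.

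Markers of another cell type (3 UMIs or 1% of a cell's UMIs in 1 of 16 marker lists) were present in 454 of the 789 selected cells, or 57.5%, and in 166 cluster 1 cells, or 35.5%. The share in cluster 1 was 31.8% in NW, 42.9% in NK, and 20% in HSW and 41.2% in HSK. Fibroblast markers were the most frequent of these, in 12.6% of cluster 1 cells. Among Ly6c2-high monocytes, chosen by the same rule but with Ly6c2, F13a1 and Vcan at 5 UMIs or more (3479 cells), 42.4% held such markers, and among non-classical monocytes, with the Treml4 sum at 5 UMIs or more (803 cells), 44.2%.

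Selected cells made up 4.47% of NW cells (342 of 7649, 95% interval 4.02 to 4.96), 3.42% of NK cells (3.05 to 3.81), 1.87% of HSW cells (1.51 to 2.28) and 0.969% of HSK cells (0.693 to 1.32). Both HySu libraries were thus below both normoxia libraries as a share of all cells. As a share of monocytes alone the order was different: 14.5% in NW, 18.5% in NK, and 8.74% in HSW and 12.7% in HSK. With each cell thinned to 4726 UMIs, leaving out shallower cells, the shares of all cells were 5.67%, 2.58%, 2.77% and 1.5%, so the order of NK and HSW turned with depth.

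**Figure D2:**
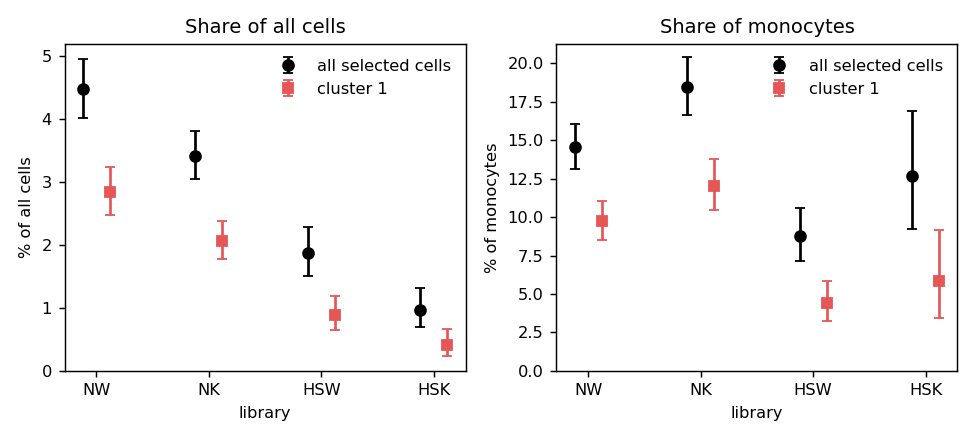
Selected cells and cluster 1 as percent of all cells (left) and of monocytes (right) in each library, with exact 95% binomial intervals. HSW and HSK lie below NW and NK among all cells, while among monocytes NK is highest at 18.5% and HSW lowest at 8.74%.

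Many selected cells lay near a limit of the rule. Of the selected cells, 113 had 4 UMIs of Ly6c2, F13a1 and Vcan, and 112 cells that met every other condition had 5; 71 had 4 UMIs of the Treml4 sum, and 73 had 5. At the score limit, 85 selected cells lay between 0.2% and 0.25% and 75 cells between 0.15% and 0.2%. The cells just inside held Ccr2 at 671 CPM and those just outside at 416 CPM, and Lyz2, which codes for lysozyme, was at 5159 and 5418 CPM. No UMI of either sum was found in 149 selected cells, of which 29 were in cluster 1.

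Within cluster 1, a finer clustering separated 5 groups that differed in genes the rule did not read. The largest, 136 cells, was led by Fn1, Mmp8, Hp and Mgst1, which classical monocytes express. Fn1 (fibronectin) was at 857 CPM there against 268 CPM in the other cluster 1 cells. Its leading genes also included I830127L07Rik, Lcn2 and Cd177. Of these, I830127L07Rik and Lcn2 were also leading genes of cluster 5, which was led by neutrophil genes. A group of 120 cells, 83 of them from NK, was led in part by Ighd, Ltb, Ly6d and Igkc, which B cells express, at low levels (Ighd was at 161 CPM). Its leading genes also included the endothelial gene Aqp1 and Ear2, a gene of non-classical monocytes, the latter at 433 against 159 CPM. A group of 104 cells was led by MHC class II genes, with H2-Aa at 5401 against 1702 CPM, together with Ciita and Axl. A group of 59 cells carried the interferon-induced genes Rsad2, Ifit2, Cxcl10 and Isg15, and 41 of them were from NW. The last, 44 cells, was led by Ifitm1, Map3k8 and Cd74, which stood at 18322 against 6172 CPM; 18 of them were from HSW.

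Cluster 1 was next placed between the Ly6c2-high and non-classical cells, using genes outside the rule in NW, NK and HSW; HSK, with 6 non-classical cells, was left out of this order. Of all 7079 genes outside the rule with 30 or more UMIs in cluster 1 of these libraries, 7.80% stood between both populations in all 3 libraries, 6.17% above both and 5.86% below both. Of 19 classical monocyte genes measured, 12 stood between both populations in all 3 libraries, 2 above both (Gm9733 and Tmem176b), 1 below both (Clec4e), and 4 varied. Fn1 was at 1655 CPM in Ly6c2-high cells, 374 in cluster 1 and 114 in non-classical cells of NW, at 2007, 602 and 162 CPM in NK, and at 1331, 224 and 114 CPM in HSW. Ccr2 was at 1836, 1513 and 737 CPM in NW, at 1555, 1239 and 414 CPM in NK, and at 1170, 940 and 259 CPM in HSW, so cluster 1 lay nearer to the Ly6c2-high cells for this receptor.

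Of 22 non-classical monocyte genes, 14 stood between both populations in all 3 libraries, 1 (Pglyrp1) below both, and 7 varied. Nr4a1, the nuclear receptor needed for non-classical monocytes, was at 981 CPM in Ly6c2-high cells, 1291 in cluster 1 and 1601 in non-classical cells of NW, and at 993, 1382 and 1652 CPM in NK. Adgre4, an adhesion receptor, was at 72.9, 298 and 592 CPM in NW and at 25, 186 and 398 CPM in HSW. Cx3cr1, the fractalkine receptor, was at 90, 235 and 359 CPM in NW, and Itgal, an integrin subunit, at 279, 557 and 982 CPM. The rule itself bounds cluster 1 against both populations, so these positions describe how far other genes follow the bounds.

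MHC class II genes did not follow this order. Of 9 measured, 7 were above both populations in all 3 libraries. Cd74, the invariant chain that escorts MHC class II, was at 1351 CPM in Ly6c2-high cells, 5903 in cluster 1 and 4838 in non-classical cells of NW. Batf3, a transcription factor of dendritic cells, was at 42.7, 113 and 54.5 CPM in NW, and Fcgr2b, the inhibitory IgG receptor, at 180, 387 and 172 CPM. Xcr1 and Clec9a, the markers of cluster 2, were at 2.26 and 1.35 CPM over cluster 1.

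**Figure D3:**
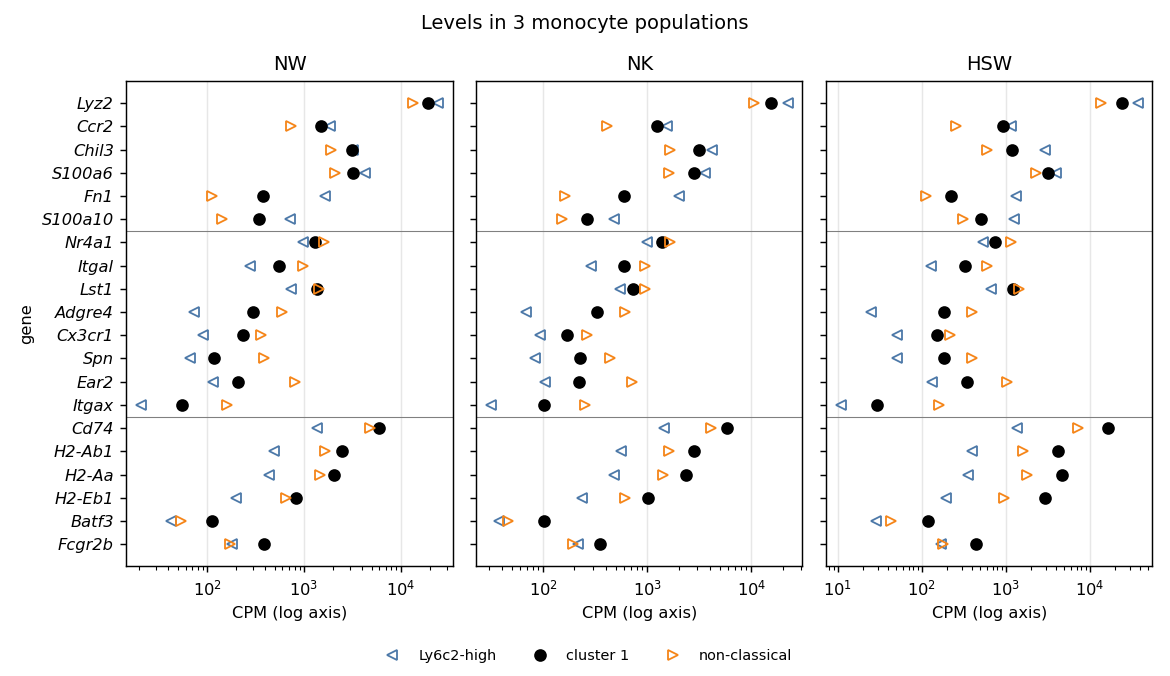
Level (CPM, log axis) of classical (top), non-classical (middle) and MHC class II and other genes (bottom) in Ly6c2-high monocytes, cluster 1 and non-classical monocytes of NW, NK and HSW. Cluster 1 lies between both populations for genes such as Fn1 and Adgre4 and above both for Cd74, H2-Eb1 and Fcgr2b.

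Cells of cluster 1, pooled over the 4 libraries, varied along both sums of the rule. In the 120 cells with no UMI of Ly6c2, F13a1 and Vcan, Cd74 was at 9860 CPM, H2-Ab1 at 4122 CPM and Fn1 at 276 CPM. In the 162 cells with 3 or 4 UMIs, Cd74 was at 4705 CPM, H2-Ab1 at 1714 CPM and Fn1 at 635 CPM. The same direction held within each normoxia library: Cd74 went from 8359 to 3136 CPM in NW (56 and 69 cells) and from 8621 to 4263 CPM in NK (48 and 69 cells), and Fn1 from 340 to 484 CPM in NW. In HSW, with 14 and 16 cells, Cd74 went from 18630 to 8987 CPM. Along the Treml4 sum the pooled Cd74 level differed less, from 7301 CPM in the 150 cells with no UMI to 7693 CPM in the 123 cells with 3 or 4, and its direction varied between libraries, from 4525 to 6594 CPM in NW and from 18489 to 12668 CPM in HSW, while Ear2, an eosinophil-type ribonuclease of non-classical monocytes, went from 133 to 364 CPM, and within NW from 143 to 340 CPM.

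The promoters of 3 MHC class II genes are shown because cluster 1 stood above both other monocyte populations for H2-Aa and H2-Eb1 and because H2-DMb2 went against them in the HySu libraries. Each is the sequence 250 bases before the start of the gene, from RefSeq, build GRCm38.p6, 5′ to 3′ on the gene's strand. Capitals mark GATTGG, the core of the Y box of MHC class II promoters, or its reverse complement CCAATC. A marked stretch need not be a Y box. H2-Aa is at chr17:34287824-34288073 on the minus strand, with the motif 49 bases before the start. H2-Eb1 is at chr17:34305617-34305866 on the plus strand, with motifs 60 and 35 bases before it. H2-DMb2 is at chr17:34144999-34145248 on the plus strand, with the motif 91 bases before it. The motif, on either strand, was in 14.6% of 32851 such windows and in 7 of the 8 windows that the table held for 7 of the list's 10 genes; H2-DMa had a window with it and one without.
H2-Aa: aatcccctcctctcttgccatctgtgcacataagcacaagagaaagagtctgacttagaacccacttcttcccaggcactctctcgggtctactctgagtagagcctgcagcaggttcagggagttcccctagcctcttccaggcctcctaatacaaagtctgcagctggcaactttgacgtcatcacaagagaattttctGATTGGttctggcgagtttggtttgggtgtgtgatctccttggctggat
H2-Eb1: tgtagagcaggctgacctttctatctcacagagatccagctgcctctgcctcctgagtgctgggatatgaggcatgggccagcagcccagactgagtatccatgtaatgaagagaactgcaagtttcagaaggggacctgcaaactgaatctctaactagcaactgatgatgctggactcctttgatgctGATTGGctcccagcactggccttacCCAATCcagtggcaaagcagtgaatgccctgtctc
H2-DMb2: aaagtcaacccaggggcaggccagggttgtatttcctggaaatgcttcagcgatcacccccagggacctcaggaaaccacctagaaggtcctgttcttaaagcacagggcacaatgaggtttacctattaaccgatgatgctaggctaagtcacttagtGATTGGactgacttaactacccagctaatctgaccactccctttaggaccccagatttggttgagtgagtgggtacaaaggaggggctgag

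Fundc1 checks the genotype labels. In cluster 1 it had 52 UMIs in NW (46.8 CPM, interval 35.0 to 61.4) and 0 in NK, HSW and HSK. Set at a floor of 3 UMIs per library, NK was at least 12.1-fold and the 45 cells of HSW at least 3.69-fold lower than NW, although HSW is wild type. Over all selected cells it had 102 UMIs in NW, 0 in NK, and 12 in HSW and 0 in HSK. In Ly6c2-high cells it had 440, 9, 240 and 0 UMIs, or 47.6, 1.75, 40.8 and 0 CPM, so in these cells, which are not endothelial, the gene was near 0 in both knockout libraries and present in both wild-type ones.

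HSW was compared with NW to see the effect of HySu in wild-type mice. In cluster 1 the MHC class II genes H2-Eb1, Cd74, H2-Aa, H2-Ab1 and H2-DMa were 1.62 to 3.53 times as high in HSW, while Il1b, Chil3 and Itgam were at 0.289 to 0.374 times NW. A gene counts as past the fold when its CPM ratio is at least 1.5 in either direction, among genes with 30 or more UMIs in the pair of libraries. In cluster 1, 639 of 5625 genes (11.4%) were higher and 1871 (33.3%) lower in HSW, and the median log2 ratio of all genes was −0.26. The split depends on scaling: with edgeR's TMM factors 896 were higher and 1468 lower, and with DESeq2 size factors 1121 and 1240. Over all selected cells, 639 of 7622 genes (8.38%) were higher and 2884 (37.8%) lower, or 1439 and 1587 with DESeq2 size factors.

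MHC class II genes were higher in HSW, against that background. In cluster 1, 6 of 8 measured were past the fold upward, 1 downward and 1 neither way, with a median log2 ratio of 0.78. In Ly6c2-high cells the same list had a median of −0.16, and in all lung cells that were not selected, other monocytes included, 0.10. In non-classical cells the summed list was at 9193 CPM in NW, 8397 in NK, and 12161 in HSW and 32876 in HSK, the last from 6 cells. Per cell, its median there was 0.184% of UMIs in NW, 0.203% in NK, and 0.161% in HSW and 0.978% in HSK. The sum was thus higher in HSW than in NW, while the median cell was not. The difference between populations has no test.

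H2-Eb1, a chain of the antigen-presenting molecule, was at 825 CPM in NW, 1008 in NK, and 2908 in HSW and 2638 in HSK. Both HySu libraries were above both normoxia libraries, at 3.53 times NW for HSW (3.19 to 3.90), while Ly6c2-high cells gave 0.961. Cd74 was at 5903, 5904, 16599 and 15208 CPM in the same order, 2.81 times NW in HSW (2.70 to 2.93), and 1.02 in Ly6c2-high cells. H2-Aa was at 2053, 2337, 4727 and 4324 CPM, with a ratio of 2.30 (2.14 to 2.47), and H2-Ab1 at 2483, 2817, 4224 and 5224 CPM, with a ratio of 1.70 (1.58 to 1.83). For these 4 genes, HSW and HSK were each above NW and NK.

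H2-DMa, a subunit of the peptide-loading molecule H2-DM, was at 597, 555, 965 and 1210 CPM and had a ratio of 1.62 (1.38 to 1.88). Ciita, the master transactivator of MHC class II genes, had 69, 65, 25 and 15 UMIs and a ratio of 1.70 (1.03 to 2.73). H2-DMb1, the partner subunit, was within the fold at 1.20 (0.928 to 1.53). H2-DMb2 went the other way, with 37 UMIs in NW and 2 in HSW, a ratio of 0.254 (0.0297 to 0.985).

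Per cell, the list made up a median of 0.283% of UMIs in NW, 0.309% in NK, and 1.21% in HSW and 2.00% in HSK in cluster 1. The quartiles of cells were 0.102% and 1.59% in NW and 0.216% and 4.88% in HSW, so cells of the libraries overlapped. The medians in Ly6c2-high cells were between 0.0815% and 0.118% in all 4 libraries. In HSW 1 cell supplied 10.6% of the list's UMIs, and in HSK 17.2%. Without the cells that held another type's markers, the summed list was at 12933 CPM in NW, 11607 in NK, and 33471 in HSW and 30821 in HSK, against 12263, 13052, 29905 and 29018 with them. In the HSW and HSK cells of cluster 1 no cell met the dendritic marker criteria, against 2 (type 1) and 5 (type 2) in NW and 2 and 3 in NK. The rule limited Cd209a and Flt3 and the clustering set dendritic-like cells apart, so few such cells could remain in cluster 1. The part of dendritic cells in the MHC class II values was not tested.

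**Figure D4:**
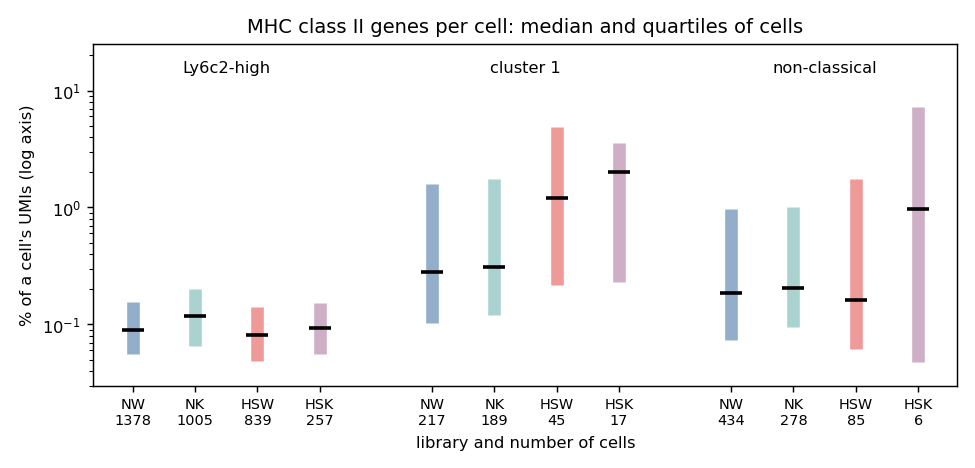
Share of a cell's UMIs in MHC class II genes (percent, log axis) in 3 monocyte populations of each library; lines mark the median cell and bars run from the lower to the upper quartile, with the number of cells under each library. In cluster 1 the median is 0.283% in NW and 1.21% in HSW, while Ly6c2-high cells stay near 0.1% in all 4 libraries.

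The clustering read the MHC class II genes, so the cells that entered cluster 1 can depend on them. Among selected cells with at least 3 of the 5 label markers, chosen without clusters, the list's median was 0.88, and over all selected cells, with 7 of 10 genes higher, it was 0.80. The dendritic and unnamed clusters, also rich in these genes, took a larger share of selected cells in HSW than in NW; their part in the latter value was not tested.

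Some inflammatory and granule genes were lower in HSW, though the inflammatory list as a whole was not set apart from all genes. Il1b, the cytokine interleukin 1 beta, was at 1317 CPM in NW, 546 in NK, and 381 in HSW and 310 in HSK, with NW alone high; the HSW ratio was 0.289 (0.231 to 0.358), against 0.447 in Ly6c2-high cells. Chil3, a chitinase-like protein of classical monocytes and macrophages, was at 3166, 3160, 1185 and 1169 CPM, low in both HySu libraries, with a ratio of 0.374 (0.330 to 0.423) against 0.923 in Ly6c2-high cells. Thbs1, the matrix protein thrombospondin 1, was at 212, 86.7, 25.4 and 217 CPM, low in HSW but not in HSK; its ratio was 0.12 (0.0434 to 0.264). Saa3, an acute-phase protein, had a ratio of 0.0764 (0.00915 to 0.282), its NW UMIs coming from 17 cells. Of 23 inflammatory cytokines and chemokines, 3 were higher and 8 lower, near the shares of all genes, with a median of 0.01 above the −0.26 of all genes. Of 14 antimicrobial and secretory granule genes, 1 was higher and 8 lower, with a median of −0.71 against 0.50 in Ly6c2-high cells. The neutrophil marker list, which moved with it, summed to 1497 CPM in NW, 997 in NK, and 813 in HSW and 1448 in HSK in cluster 1; its part in these values was not tested.

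Receptors were mostly lower: of 26 chemokine, growth factor and adhesion receptors, none was past the fold upward and 18 downward, with a median of −0.64 against −0.57 in Ly6c2-high cells. Itgam, the CD11b integrin subunit, was at 371, 450, 123 and 103 CPM in NW, NK, HSW and HSK, low in both HySu libraries. Cxcr4, a receptor that holds leukocytes in bone marrow, was at 233, 230, 106 and 103 CPM in the same order, and its ratio, 0.454 (0.288 to 0.685), was close to the 0.510 of Ly6c2-high cells. Of 27 pattern recognition and phagocytosis receptors, 4 were higher and 13 lower. Of 25 transcription factors, 2 were higher and 8 lower, near the 11.4% and 33.3% of all genes. Nr4a1 was at 1291, 1382, 753 and 279 CPM, low in both HySu libraries, with a ratio of 0.583 (0.496 to 0.682).

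Of 19 classical genes, 1 was higher and 8 lower, and of 19 non-classical genes, 4 were higher and 8 lower, counts close to the shares of all genes. The classical median was −0.52, against −0.26 for all genes in cluster 1 and −0.12 for the list in Ly6c2-high cells. Among the non-classical genes, Spn (leukosialin) was at 1.57 and Ear2 at 1.65 times NW. Among genes higher in HSW in Ly6c2-high cells as well, Tyrobp, the adaptor of activating receptors, had a ratio of 1.75 (1.65 to 1.87) in cluster 1 and 1.74 there, and Lgals3, which codes for galectin 3, 1.73 and 1.64. Il18, the inflammasome cytokine, was at 40.5, 29.8, 106 and 134 CPM in NW, NK, HSW and HSK, with a ratio of 2.61 (1.53 to 4.35) against 1.5 in Ly6c2-high cells. Mitochondrially encoded genes were higher in 6 of 7, with a median of 0.91 and 0.88 in Ly6c2-high cells; the median share of mitochondrial UMIs was 1.35% in NW and 2.28% in HSW cluster 1 cells.

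The genes named by size of ratio were, upward, Acbd6 at 5.11 (2.78 to 9.42), Coq9, Pmvk, H2-Eb1, Zfand2b, Nbeal1, Nsd2 and Hist1h2ac, the last at 3.13. Apart from H2-Eb1 each rested on 12 to 29 UMIs in HSW. Downward, Dok2, an adaptor that restrains receptor signaling, had 66 UMIs in NW and 0 in HSW, at least 4.68-fold lower, and Fmc1 and Fxr2 were also at 0, at least 4.33-fold and 4.04-fold lower. Pan3, Saa3, Ddb1, Zfx and Nol12 had 1 or 2 UMIs in HSW and ratios of 0.0580 to 0.0771, with upper limits of 0.282 to 0.446. In each comparison, genes were named by size of ratio only when their interval was clear of a ratio of 1. The intervals of named genes thus give no separate support.

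**Figure D5:**
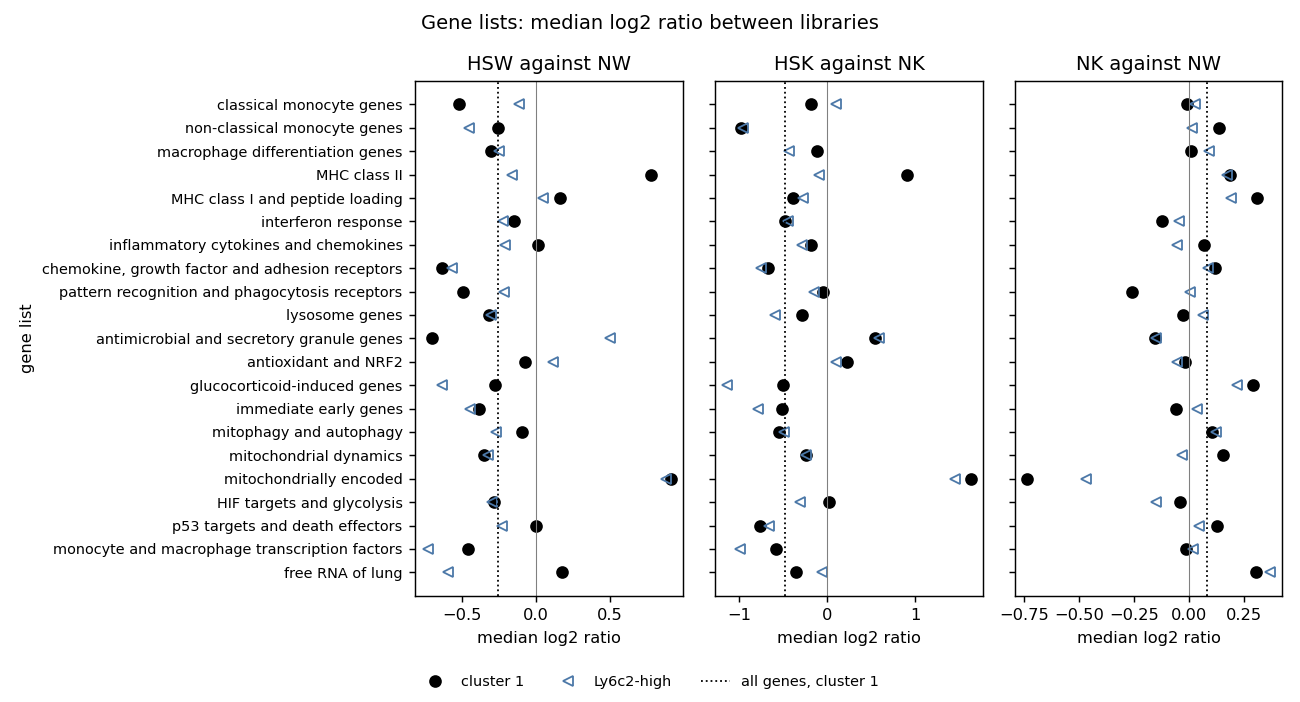
Median log2 ratio of each gene list in cluster 1 and in Ly6c2-high cells for HSW against NW, HSK against NK and NK against NW; the dotted line is the median of all genes in cluster 1. MHC class II lies at 0.78 and 0.91 in cluster 1 under HySu and below 0 in Ly6c2-high cells.

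HSK was compared with NK to see the effect of HySu in knockout mice, with 17 cluster 1 cells in HSK. Cd74, H2-Eb1 and other MHC class II genes were again higher, and Nr4a1 and Pou2f2, transcription factors of non-classical monocytes, were at 0.202 and 0.140 times NK. HSK carried more RNA of other lung cells: surfactant, club cell and hemoglobin genes summed to 14814 CPM in HSK cluster 1 cells against 5931 in NK, 5802 in HSW and 4812 in NW, and airway and alveolar type 1 markers to 11494 CPM in HSK against 2376 in NK, and their part in the HSK values was not tested. In cluster 1, 655 of 4590 genes (14.3%) were higher and 2096 (45.7%) lower, with a median log2 ratio of all genes of −0.48; with TMM factors 913 were higher and 1717 lower. Over all selected cells, 840 of 6795 genes (12.4%) were higher and 3282 (48.3%) lower, or 1651 and 2053 with DESeq2 size factors. MHC class II genes were again higher in 6 of 8 and lower in 1, with a median of 0.91 against −0.09 in Ly6c2-high cells. H2-Eb1 had a ratio of 2.62 (2.26 to 3.02), Cd74 of 2.58 (2.43 to 2.73), H2-DMa of 2.18 (1.76 to 2.68), and H2-Aa and H2-Ab1 of 1.85 each. Ly6c2-high cells gave 1.46 for H2-Eb1 and 1.23 for Cd74. The 6 non-classical HSK cells were at 19063 CPM of Cd74, above cluster 1. Among selected cells with at least 3 label markers the list's median was 0.62, and over all selected cells, with 5 of 10 genes higher, it was 0.58, or 0.03 with UMIs thinned.

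Non-classical genes were lower in HSK, 14 of 20 with 1 higher and a median of −0.98, close to the −0.96 of Ly6c2-high cells. Nr4a1 went from 1382 CPM in NK to 279 in HSK (interval of the ratio 0.133 to 0.296), and Pou2f2, which codes for the transcription factor OCT2, was at 444 CPM in NK and 62.1 in HSK (interval of the ratio 0.0510 to 0.307). None of 25 transcription factors was past the fold upward and 12 were downward, near the 45.7% of all genes that were lower. Antimicrobial and secretory granule genes were higher in 7 and lower in 3 of 14, with a median of 0.54 against 0.58 in Ly6c2-high cells. S100a8, a subunit of calprotectin, was at 699, 352, 330 and 714 CPM in NW, NK, HSW and HSK, high in NW and HSK, and S100a9, its partner, at 336, 238, 186 and 455 CPM. Over all libraries S100a8 was at 539 CPM in cluster 1, with a UMI in 78.4% of cells. In the dendritic cell type 1-like cluster it was at 441 CPM, with a UMI in 80% of cells. S100a9 was at 291 and 298 CPM in these clusters. The part of RNA from other cells in the levels of both genes was not tested. Mitochondrially encoded genes were higher in 6 of 6, with a median of 1.63 against 1.45 in Ly6c2-high cells. Il18 had a ratio of 4.52 (2.10 to 9.30).

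The genes named by size of ratio included, upward, Edf1, a transcriptional coactivator, at 5.66 (4.03 to 7.90) against 2.62 in Ly6c2-high cells, and Dnajc19 (3.89), Atp5o (3.53) and Sdhb (3.30), which code for mitochondrial proteins. Ssr4, Gng5, Rpp21 and S100a11 completed the list. Edf1 was at 258 CPM in NW, 115 in NK, and 567 in HSW and 652 in HSK, so both HySu libraries were high. Downward, Hdgf, a growth factor, had 131 UMIs in NK and 0 in HSK, at least 5.46-fold lower. Csgalnact2, Ccdc88c, Baz1b, Ankle2, Chd8, Kdm2a and Hip1 were also at 0 in HSK, the last at least 3.75-fold lower.

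NK was compared with NW to see the effect of the knockout in normoxia. Glucocorticoid-induced genes such as Tsc22d3 and Ddit4, and the cytochrome Cyp4f18, were 2.20 to 3.93 times as high in NK, while Il1b and Isg15 were at 0.415 and 0.450 times NW. In cluster 1, 1127 of 6834 genes (16.5%) were higher and 687 (10.1%) lower; with TMM factors the majority turned, to 744 higher and 1061 lower, and with DESeq2 size factors it was 887 and 903. The TMM factors moved the median of all genes from 0.08 to −0.07. Over all selected cells, 1366 of 8663 genes (15.8%) were higher and 660 (7.62%) lower, or 911 and 1010 with TMM factors. This pair shares NW with the HySu comparison in wild-type mice.

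Glucocorticoid-induced genes were higher in NK, 7 of 16 with none lower and a median of 0.29. The median was 0.22 in Ly6c2-high cells and 0.30 in all lung cells that were not selected, other monocytes included. Tsc22d3, the glucocorticoid-induced leucine zipper, was at 231 CPM in NW, 507 in NK, and 301 in HSW and 331 in HSK, with NK alone high and a ratio of 2.20 (1.88 to 2.59). Ddit4, an inhibitor of mTOR signaling, was at 49.5, 142, 80.4 and 248 CPM, higher in each knockout library than in its wild-type partner, with a ratio of 2.87 (2.06 to 4.05) against 1.73 in Ly6c2-high cells, and Fkbp5, a cochaperone of the glucocorticoid receptor, had a ratio of 2.55 (1.47 to 4.51) against 2.63. MHC class I genes were higher in 6 of 18 with none lower. MHC class II genes were past the fold in 1 of 9, H2-Ob at 2.21 (1.05 to 4.84), with a median of 0.19 against 0.17 in Ly6c2-high cells.

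Of 26 mitophagy and autophagy genes, 5 were higher and 1 lower in NK, near the 16.5% of all genes that were higher, so the list is not set apart. Among its members, Pink1, the kinase that marks damaged mitochondria, was at 24.3 CPM in NW and 76.4 in NK, a ratio of 3.14 (1.96 to 5.15) against 1.74 in Ly6c2-high cells, and Ulk1, the kinase that starts autophagy, had a ratio of 2.44 (1.42 to 4.27) against 1.12. Mitochondrially encoded genes were lower in 5 of 7, with a median of −0.74 against −0.47 in Ly6c2-high cells. Il1b was lower, at 0.415 times NW (0.371 to 0.462) against 0.875 in Ly6c2-high cells, and so was Isg15, an interferon-induced ubiquitin-like protein, at 0.450 (0.316 to 0.630) against 0.735. Of 42 interferon response genes, 3 were higher and 6 lower, beside 16.5% and 10.1% of all genes. The summed list was at 8556 CPM in NW and 8245 in NK, so Isg15 does not stand for the list. The interferon group within cluster 1 held 41 NW and 12 NK cells.

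Cyp4f18, a lipid-oxidizing cytochrome P450, was at 72 CPM in NW, 283 in NK, and 102 in HSW and 217 in HSK, high in both knockout libraries, with a NK ratio of 3.93 (3.03 to 5.15) against 1.97 in Ly6c2-high cells. Of 22 non-classical genes, 8 were higher and 2 lower, with Spn at 1.89 (1.5 to 2.39), and of 19 macrophage differentiation genes 5 were higher and 1 lower, among them Mrc1, the mannose receptor, at 3.45 (2.01 to 6.14) against 1.37. The other genes named upward were Ralgps2 (4.31), Vill, Tnpo3, Seh1l, Ndfip1, Rfx2 and Nfat5 (3.16), and downward Ndufs5 (0.211), Tnfsf13os, Mrpl42, Fam43a, Nans, Ocel1, Mlx and Parp3 (0.322). B and plasma cell markers were held by 18 cluster 1 cells in NK and 12 in NW, and markers of any other type by 42.9% and 31.8% of cells; their part in these values was not tested.

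HSK was compared with HSW to see the effect of the knockout under HySu, with 17 and 45 cells of cluster 1. Mmp8, Ccl2 and Fn1 were 2.03 to 6.11 times as high in HSK, Ear2 and Nr4a1 were lower, and Cd74 and H2-Eb1 were within the fold. In cluster 1, 221 of 1659 genes (13.3%) were higher and 327 (19.7%) lower; over all selected cells, 502 of 3704 (13.6%) were higher and 623 (16.8%) lower. None of 7 MHC class II genes was past the fold in either direction, with a median of −0.13; H2-Eb1 had a ratio of 0.907 (0.783 to 1.05) and Cd74 of 0.916 (0.862 to 0.973). Classical genes were higher in 4 of 18 with none lower, Mmp8, a collagenase, at 6.11 (2.83 to 14.3) and Fn1 at 2.03 (1.33 to 3.08) among them. Within cluster 1, Mmp8 led the same group of cells as Lcn2, a leading gene of cluster 5. The neutrophil marker sum of cluster 1, given above, was also higher in HSK than in HSW. Surfactant, club cell and hemoglobin genes summed to 14814 CPM in HSK against 5802 in HSW. The part of both in these values was not tested. Non-classical genes were lower in 5 of 14 and higher in 1, with Ear2 at 347 CPM in HSW and 62.1 in HSK, a ratio of 0.179 (0.0638 to 0.406), and Nr4a1 at 0.371 (0.238 to 0.558). Of 21 interferon response genes, 1 was higher and 9 lower, with a median of −0.25 against −0.34 in Ly6c2-high cells.

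Ccl2, the chemokine that draws monocytes, was at 297 CPM in NW, 252 in NK, and 195 in HSW and 507 in HSK, with HSK alone high, at 2.6 times HSW (1.71 to 3.98) against 0.701 in Ly6c2-high cells. Cndp2, Dnajc19, Ndufb8, Fcf1, Ms4a8a, Atp5o and Ndufb3 were the others named upward, at 2.39 to 3.87. Ifi202b, an interferon-induced gene, was at 123 CPM in HSW and 10.3 in HSK, where it had 1 UMI, a ratio of 0.0843 (0.00206 to 0.508). Clptm1l, Gnai3, Pfkfb4, Rbm28, Hcfc1r1, F10 and Nrd1 were the others named downward, with 2 to 8 UMIs in HSK, ratios of 0.169 to 0.236 and upper limits of 0.486 to 0.708. An upper limit below 1 was a condition of naming a gene downward.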

How the data were processed

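The authors deposited raw UMI counts per gene and cell. The submitters' processing notes name the builds GRCm38 and mm10 and the tools STAR 2.6.1a, cutadapt 1.17, Scanpy and featureCounts 2.0.1. All 4 libraries were used, and 0 columns were left unused. Cells needed 200 genes and at most 20% mitochondrial UMIs, which removed 1 cell of NK and 1 of HSW. The members of the selection, the 24 gene lists and the tests were chosen with earlier results of these data known. The selected cells were clustered on 1500 variable genes, 20 components and 15 neighbors (Leiden, resolution 0.5, finer 1; scanpy 1.11.5, leidenalg 0.10.2, Python 3.11.15). Counts were summed per library and population and given as CPM, and ratios with conditional binomial intervals (scipy 1.17.1); 0.5 UMIs were added for log2 ratios. Alternative scalings used edgeR 4.0.16 and DESeq2 1.42.0 in R 4.3.3, with no test. No p-values were computed, since each group is 1 library of 5 pooled mice. Named genes were the 8 with the largest ratio in each direction among those that met several limits. They were past the fold, at 50 CPM or more in the higher library and with at most 25% of UMIs from 1 cell. Their interval had to be clear of a ratio of 1, so the intervals of named genes give no separate support. Limits on gene class and on the level in other lung cells also applied. Other genes are from the lists or were chosen after their values were seen. No doublet caller was run; cells holding another type's markers were left out as an alternative. CPM compares a gene between populations, not genes with each other. Fewer molecules per cell and a changed mix of cells cannot be told apart in these sums. Results for some genes are not reported here.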

Additional observations from a re-analysis of the deposited data

Results flagged for a closer look

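In cluster 1, 7 genes of the lists and named genes went in opposite directions under HySu, lower in HSW than in NW and higher in HSK than in NK, with both counting intervals clear of a ratio of 1 and at least 10 UMIs in every library; the difference was not tested, since each group is 1 library. It is given as the log2 ratio of HSK to NK minus that of HSW to NW. Only genes of the lists and genes named for their ratio in these same libraries were searched. The share over all genes was not computed, so the count of 7 has no background beside it. Dnajc19 was one of the genes named upward for HSK against NK. Dnajc19, a subunit of the mitochondrial import motor, differed by 3.00, with ratios of 0.474 in wild-type and 3.89 in knockout mice. S100a8 differed by 2.10 (0.472 and 2.03) and S100a9, its partner, by 1.78 (0.555 and 1.91). Over cluster 1 these 2 genes were at 539 and 291 CPM, against 441 and 298 CPM in the dendritic cell type 1-like cluster. There 80% and 77.7% of cells held a UMI, against 78.4% and 67.7% in cluster 1. The part of RNA from other cells in the levels of both genes was not tested. The neutrophil markers in cluster 1 moved the same way, at 1497, 997, 813 and 1448 CPM in NW, NK, HSW and HSK. Ier3, an immediate early gene, differed by 2.00 (0.674 and 2.71), and Oas1a, an antiviral enzyme induced by interferon, by 1.91 (0.505 and 1.92). Ndufb8, a subunit of respiratory complex I, differed by 1.74 (0.592 and 2.00), and Ccl2 by 1.61 (0.655 and 2.01). In Ly6c2-high cells both ratios were above 1 for S100a8 (1.96 and 5.04), S100a9 (2.06 and 3.87), Ier3 (1.66 and 1.70) and Dnajc19 (1.15 and 1.53). HSK rests on 17 cells of cluster 1, whose surfactant, club cell and hemoglobin genes summed to 14814 CPM against 4812 to 5931 CPM in the other libraries; the part of that RNA in these values was not tested.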

How the results depend on the processing

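No paired analysis was possible because each group is 1 library. The alternatives that use cluster 1, that leave out cells below 3 label markers, or that leave out the cell with the most MHC class II UMIs were chosen after seeing the data. The MHC class II median in cluster 1 ranged from 0.67 to 1.14 for HSW against NW and from 0.62 to 1.44 for HSK against NK over all settings.

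Shares of all cells in NW, NK, HSW and HSK, 4.47%, 3.42%, 1.87% and 0.969%, became 5.67%, 2.58%, 2.77% and 1.5% in thinned cells, 2.90%, 1.72%, 0.853% and 0.484% with a score of 0.4%, 1.59%, 1.12%, 0.853% and 0.533% with both sums below 2 UMIs, 2.08%, 1.32%, 0.853% and 0.291% without cells holding another type's markers, and 2.84%, 2.06%, 0.893% and 0.412% in cluster 1; without the 10% with the most UMIs NW was at 4.01%. Of monocytes, they were 14.5%, 18.5%, 8.74% and 12.7%, and 9.74%, 12%, 4.39% and 5.82% in cluster 1.

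Genes past the fold over the selected cells numbered 3523 (HSW against NW), 4122 (HSK against NK), 2026 (NK against NW) and 1125 (HSK against HSW). Without cells holding another type's markers they were 2062, 1944 and 537 for HSW against NW, HSK against NK and HSK against HSW, and with both sums below 2 UMIs 2336, 2143 and 716. With 100 UMIs in the pair all 4 were 1609, 1695, 709 and 170, and with a fold of 2 they were 1618, 2517, 590 and 443. With 10 UMIs NK against NW gave 3542 and HSK against HSW 3085. In thinned cells HSK against NK gave 1918 and HSK against HSW 697, and with a score of 0.4% they gave 2446 and 552. In cluster 1 the counts 2510, 2751, 1814 and 548 became 908, 612, 915 and 141 with both sums below 2 UMIs, 827, 842, 487 and 60 with 100 UMIs, 4280, 4989, 3297 and 2118 with 10 UMIs, and 1174, 1768, 568 and 222 with a fold of 2. Thinned, HSW against NW gave 1446 and HSK against NK 654, and without cells holding another type's markers HSK against NK gave 1779. The thresholds and smaller cell sets change which genes can be counted.

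Some log2 values turned direction. Over the selected cells these were Ngp, a neutrophil granule gene, in HSW against NW (−1.88 without cells holding another type's markers and −6.21 with both sums below 2 UMIs), and in HSK against HSW Nup210 (−1.92) and the cell cycle list (−0.21), both without cells holding another type's markers. In cluster 1 the circadian clock list turned to 1.05 (HSK against NK, thinned), −0.086 (NK against NW, thinned), −0.10 (HSK against HSW, score of 0.4%) and −0.36 (HSK against HSW, 3 label markers). In NK against NW, Nfat5 turned to −0.34 and Vill to −0.80 in thinned cells, and Parp3 to 0.36 and Tnfsf13os to 0.0018 with both sums below 2 UMIs. In HSK against HSW, Ms4a8a turned to −0.51 with both sums below 2 UMIs. The cause was not tested.

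Depth limits HSK most, with 96663 UMIs in cluster 1 against 1110689 in NW. With 1 library per group, no difference has a replicate check, and differences between mice or captures cannot be told apart from the conditions.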
